A study of Homo sapiens with 12 samples.

Results

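A set of 37 genes of the Wnt signalling pathway was followed by RNA-seq in A549 and PC9, with and without forced expression of HOXC6. The genes were chosen by name, as ligands, receptors, members of the destruction complex and transcription factors of the pathway, and all 37 were among the 12584 genes with complete values. The list was drawn up around WNT6 and APC, whose values in these libraries were already known, so the values of these genes are given as a description of where they stand in the pathway. The 37 genes comprise 9 ligands, 2 genes for the release of ligands, 7 receptors, 3 regulators of receptors, 2 secreted inhibitors, 3 relay proteins of the cytoplasm, 5 members of the destruction complex, beta-catenin, and 5 nuclear factors.

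Wnt ligands are secreted lipid-modified proteins that need PORCN for their lipid and WLS for their transport to the cell surface. They bind Frizzled receptors, encoded by the FZD genes, together with the co-receptors LRP5 or LRP6. Without a ligand, beta-catenin (CTNNB1) is marked for degradation by a destruction complex that holds APC, AXIN1, GSK3A or GSK3B and CSNK1A1. With a ligand, the Dishevelled proteins (DVL genes) relay the signal, the complex is held back, and beta-catenin joins LEF1 or a TCF protein at target genes. Some ligands, WNT5A and WNT11 among them, also act through branches that do not use beta-catenin. In the adult lung the pathway takes part in epithelial renewal, and in tumours of the colon loss of APC is a well-known way to switch it on.

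A549 and PC9 are established lines of human non-small cell lung cancer. A549-HOXC6 and PC9-HOXC6 cells stably carried the lentiviral vector pCDH-HOXC6, and A549-NEO and PC9-NEO cells carried the empty vector pCDH-NEO, with 3 libraries in each of the 4 groups. All 4 groups were kept under neomycin. A549 was grown in RPMI medium and PC9 in DMEM, so that the line and its medium cannot be told apart in any difference between lines. Whether each group was a pool or a clone, and which promoter drove HOXC6, is not given in the sources used here. HOXC6 itself was not analysed here, so the labels were not checked on the gene they name. The labels call the 3 replicates of a group independent without saying whether they were separate cultures, so the p-values measure the spread between these libraries.

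Totals ran from 1212053 to 3286577 counts per library over the genes analysed, and the smallest, A549-HOXC6 replicate 2, held less than any other library. A count of 3 in a library, taken as the floor of detection, equalled 0.913 to 2.48 CPM, the count scaled to one total for every library. Of the 6 epithelial markers listed, 4 were measured (EPCAM, CDH1, KRT18 and KRT7), and their summed level lay between 7802 and 11680 CPM over the 12 libraries, from 7802 to 8012 in A549-NEO and from 9233 to 11630 in A549-HOXC6. Of 12 markers of blood, endothelial, fibroblast and muscle cells, 6 were measured, and their sum lay between 63.6 and 216 CPM over the 4 groups and came mainly from COL1A1 and MYH11. Genes with a transcript GC content under 40% took 6.83 to 7.22% of the counts with the empty vector and 4.19 to 5.16% with HOXC6 in A549, and in PC9 7.05 to 7.51% and 5.28 to 5.47%. The HOXC6 libraries were thus below the NEO libraries in this share in both lines without overlap. For that reason, values after each library was corrected for smooth trends on GC content and transcript length (the GC correction) are given beside the results they bear on.

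To show the sequences at which HOXC6, a homeodomain protein, and the TCF and LEF factors could be looked for, the promoters of 5 members that the results below turn on are printed. WNT6, WNT7A, WNT5A and DKK1 code for secreted proteins whose levels differed between lines or with HOXC6. APC had the largest decrease with HOXC6 of all members before the GC correction. The sequences are from RefSeq on GRCh38.p14, run 5′ to 3′ along the strand of the gene, and hold 250 bases before and 50 bases after an annotated start. They lie at chr2:218859555-218859854 (WNT6, forward strand), chr3:13880022-13880321 (WNT7A, reverse), chr3:55487257-55487556 (WNT5A, reverse), chr10:52314031-52314330 (DKK1, forward) and chr5:112707248-112707547 (APC, forward). Capitals mark TAAT, the core of many homeodomain sites, and CTTTG, the core of TCF and LEF sites, on either strand (ATTA and CAAAG on the other), including overlapping matches.
WNT6: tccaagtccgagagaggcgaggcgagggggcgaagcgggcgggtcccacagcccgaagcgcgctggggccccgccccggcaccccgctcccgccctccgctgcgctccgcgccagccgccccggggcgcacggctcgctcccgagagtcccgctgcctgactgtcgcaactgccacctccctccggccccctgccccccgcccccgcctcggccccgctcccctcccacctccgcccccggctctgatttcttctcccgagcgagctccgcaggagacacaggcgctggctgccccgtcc
WNT7A: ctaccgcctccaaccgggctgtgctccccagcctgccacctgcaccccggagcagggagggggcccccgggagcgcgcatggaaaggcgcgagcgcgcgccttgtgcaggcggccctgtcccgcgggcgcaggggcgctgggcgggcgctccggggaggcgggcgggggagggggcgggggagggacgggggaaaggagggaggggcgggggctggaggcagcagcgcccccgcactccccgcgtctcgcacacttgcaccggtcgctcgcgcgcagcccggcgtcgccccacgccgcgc
WNT5A: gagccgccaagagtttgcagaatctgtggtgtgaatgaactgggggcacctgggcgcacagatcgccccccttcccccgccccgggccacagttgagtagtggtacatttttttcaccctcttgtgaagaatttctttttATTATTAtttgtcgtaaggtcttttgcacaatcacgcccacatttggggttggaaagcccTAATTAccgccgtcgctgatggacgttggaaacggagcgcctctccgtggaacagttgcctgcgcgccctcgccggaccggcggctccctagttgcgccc
DKK1: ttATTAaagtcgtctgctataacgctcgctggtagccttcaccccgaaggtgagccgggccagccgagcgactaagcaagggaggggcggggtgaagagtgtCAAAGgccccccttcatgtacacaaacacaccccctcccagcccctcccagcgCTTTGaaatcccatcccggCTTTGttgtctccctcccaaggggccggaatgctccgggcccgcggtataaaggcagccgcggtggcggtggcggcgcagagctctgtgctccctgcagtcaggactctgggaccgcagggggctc
APC: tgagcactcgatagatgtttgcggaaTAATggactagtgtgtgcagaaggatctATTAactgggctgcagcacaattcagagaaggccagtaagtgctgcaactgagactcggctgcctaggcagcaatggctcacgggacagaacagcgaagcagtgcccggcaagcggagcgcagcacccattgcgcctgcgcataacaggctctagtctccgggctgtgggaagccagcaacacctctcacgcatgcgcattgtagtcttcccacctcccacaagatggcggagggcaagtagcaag

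The WNT5A window held 4 matches to TAAT, which overlap in pairs in TAATTA and in ATTATTA. The DKK1 window held 1 match to TAAT and 3 to CTTTG, the APC window 2 to TAAT, and the windows of WNT6 and WNT7A none of either. WNT5A and APC each have another annotated start, whose windows are not printed and held 4 and 1 matches to TAAT. Of all 35116 RefSeq windows of this length, 50.2% held TAAT and 47.5% held CTTTG. Of the 39 windows found for 29 of the 37 members, 16 (41.0%) held TAAT and 13 (33.3%) held CTTTG. Motifs this short occur in a large share of all promoters, and a match is a description of the letters only.

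The first comparison placed the members in the cell lines before HOXC6 was added, between A549-NEO and PC9-NEO. The lines differed in which ligands they expressed. PC9-NEO cells expressed WNT6, WNT9A, WNT10A and WNT7A, which were low or at the floor in A549-NEO, and A549-NEO cells had far more mRNA of the secreted inhibitors DKK1 and DKK3. By edgeR's quasi-likelihood test over 9076 genes with Benjamini-Hochberg adjustment, 10 of 35 members tested were higher in A549-NEO and 7 were lower where a call here and throughout required an adjusted p below 0.05 together with a log2 difference beyond 1 in either direction. The background was 19.6% of all genes called higher and 16.4% lower, against 28.6% and 20% of the members tested. Of the members called lower, 4 (WNT6, WNT5A, WNT7A and WNT10A) reached the minimum of counts in every library of PC9-NEO alone, and of those called higher, 2 (WNT11 and TCF7) in A549-NEO alone. Such members entered the test through the group in which they were high, so nothing is read from these shares. At any size of change, 14 members were higher and 13 lower (40% and 37.1%), against 36.9% and 35.7% of all genes. LEF1 and LGR5 had too few counts to be tested.

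**Figure D1:**
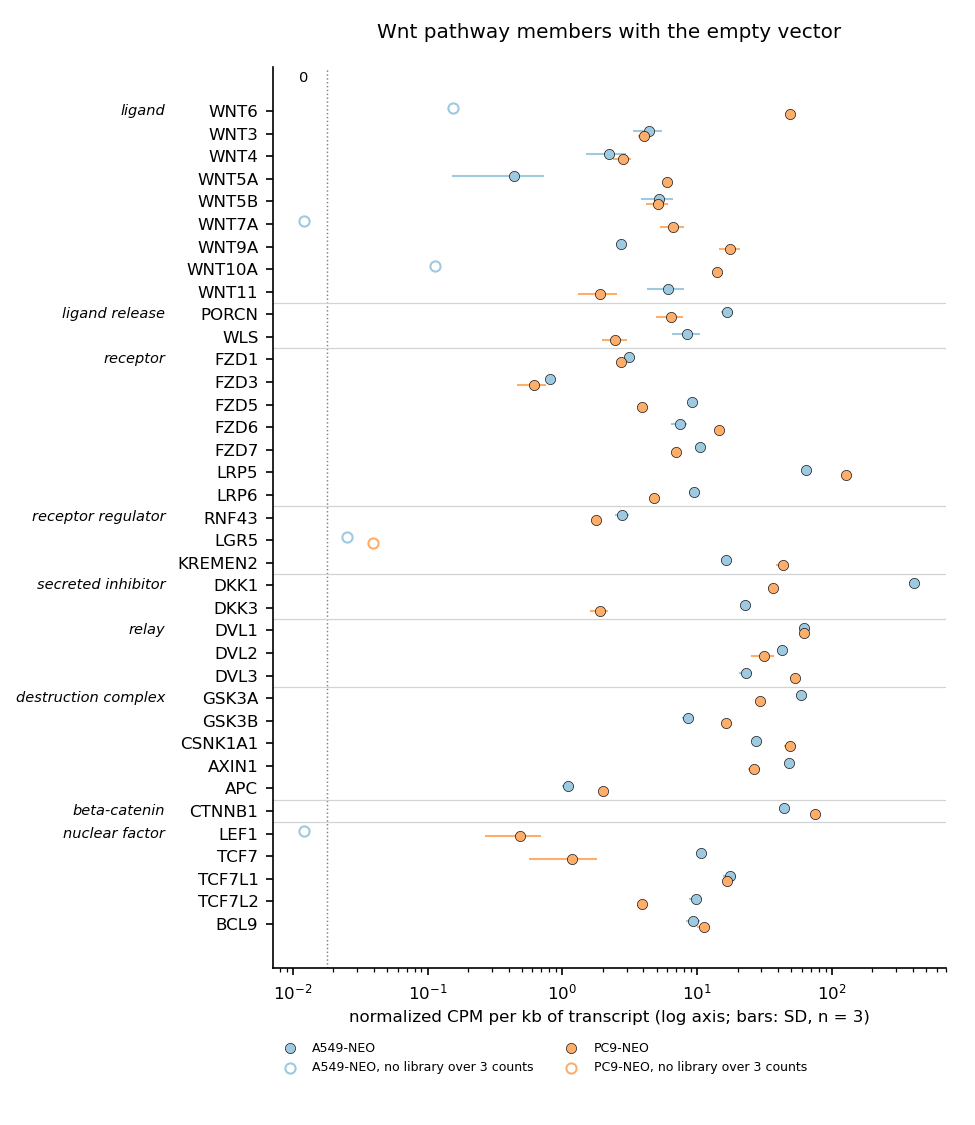
Mean level of each member in A549-NEO (blue) and PC9-NEO (orange) in normalized CPM per kb of transcript on a log axis, with SD bars over 3 libraries; open circles mark groups with no library over 3 counts, and those left of the dotted line are at 0. DKK1 stands highest in A549-NEO (406 CPM per kb) and LRP5 in PC9-NEO (128), while WNT6, WNT7A and WNT10A are open circles in A549-NEO.

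Per kb of transcript, the scale on which levels of different genes can be compared, DKK1 was the most abundant member in A549-NEO at 406 ± 10.3 CPM per kb (SD, n = 3). LRP5 came next at 64.5 ± 3.12, with DVL1 (61.8 ± 3.02) within its SD of LRP5 and GSK3A (59.1 ± 3.17) within its SD of DVL1. In PC9-NEO the order began with LRP5 at 128 ± 6.61, CTNNB1 at 75.2 ± 2.41 and DVL1 at 62.3 ± 4.31 CPM per kb. WNT6 was the sixth member in that order at 49.1 ± 3.77, within the SD of CSNK1A1 (49.4 ± 4.82), whereas in A549-NEO it stood at 0.154 ± 0.133 with no library above 1 count. The stem cell receptor gene LGR5 had at most 1 count in any of the 12 libraries.

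Among the ligands, WNT6 reached 77.3, 86.1 and 89.9 normalized CPM with the empty vector in PC9, from 143, 171 and 212 counts. Taken against the floor of 3 counts per library, it was at least 74.0-fold lower in A549-NEO. WNT10A, whose gene lies next to WNT6 on chromosome 2 of GRCh37 (219745574 to 219764303, against 219724528 to 219738955 for WNT6), counted 49, 59 and 71 reads in the PC9-NEO libraries against 2, 0 and 0 in those of A549-NEO, at least 25.2-fold lower. WNT7A likewise had 38, 58 and 71 in PC9-NEO against 0 in every A549-NEO library, at least 23.3-fold lower.

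WNT9A was measured in both lines, at 76.7, 56.9 and 78.9 CPM in PC9-NEO and 11.1, 10.04 and 11.8 in A549-NEO. Its log2 difference of A549-NEO from PC9-NEO was -2.65 ± 0.18 (SE) with an adjusted p of 1.28e-15 by edgeR's quasi-likelihood test. WNT5A, a ligand known mainly for signalling without beta-catenin, was at 33.5, 36.2 and 35.2 CPM in PC9-NEO and 2.08, 4.42 and 1.18 in A549-NEO, a log2 difference of -3.72 ± 0.30. Neither gene's groups overlapped.

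WNT11 was the ligand called higher in A549-NEO, at 12.1, 14.9 and 7.86 CPM against 4.86, 3.52 and 2.54 in PC9-NEO, with a log2 difference of 1.73 ± 0.37. WNT3, WNT4 and WNT5B differed by 0.16, -0.29 and 0.08 on the log2 scale, and their groups overlapped. The genes for ligand release were both higher in A549-NEO. WLS, the carrier of Wnt proteins, was at 26.7, 16.9 and 25.5 CPM against 7.57, 7.55 and 5.09, and PORCN, the acyltransferase, was at 28.5, 35.0 and 30.6 CPM against 11.9, 14.6 and 9.33.

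Both secreted inhibitors were higher in A549-NEO. DKK1, which binds LRP5 and LRP6 and blocks the receptor complex, was at 724, 753 and 719 CPM in A549-NEO and 68.6, 71.0 and 60.2 in PC9-NEO, an 11.3-fold difference (log2 3.503 ± 0.08, adjusted p of 1.99e-30). DKK3, a divergent member of the same family, was at 55.5, 56.2 and 60.1 CPM against 4.86, 4.03 and 5.51, a 12.04-fold difference. KREMEN2, a receptor that binds DKK proteins, went the other way, at 31.2, 31.3 and 35.4 CPM in A549-NEO and 82.1, 80.0 and 96.3 in PC9-NEO (log2 -1.37 ± 0.13).

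Of the receptors, FZD5 (64.2, 59.9 and 68.8 CPM against 28.6, 27.7 and 26.7) and LRP6 (88.8, 98.8 and 102 against 52.4, 47.8 and 47.9) were called higher in A549-NEO. The LRP6 difference of 1.01 lay at the threshold and fell to 0.89 after the GC correction, with an adjusted p of 1.41e-08, and it was 0.976 to 1.08 as each library was left out, under the threshold without A549-NEO replicate 3, PC9-NEO replicate 2 or PC9-NEO replicate 3. The other co-receptor, LRP5, was lower in A549-NEO by 0.95 on the log2 scale, just under the threshold. LRP5 was thus higher in PC9-NEO and LRP6 in A549-NEO, while per kb LRP5 was above LRP6 in both.

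Inside the cell, GSK3A was higher in A549-NEO (127, 125 and 138 CPM against 61.6, 67.0 and 63.2, log2 1.06 ± 0.10) and its paralog GSK3B lower (log2 -0.89 ± 0.10). DVL3 was lower in A549-NEO (135, 121 and 108 CPM against 291, 256 and 292, log2 -1.17 ± 0.09). Among the nuclear factors, TCF7 was at 33.0, 35.0 and 36.9 CPM in A549-NEO and 1.62, 4.53 and 5.51 in PC9-NEO (log2 3.14 ± 0.28), and TCF7L2, the TCF best known from the intestine, was at 40.2, 35.4 and 44.004 against 16.2, 14.6 and 16.5 (log2 1.37 ± 0.19). LEF1 had 0 counts in all 6 A549 libraries and 3, 2 and 6 in PC9-NEO.

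The comparison the study was built on asked which genes change with HOXC6 in each line. In A549, HOXC6 came with more mRNA of several ligands and of DKK1 and with less APC. Of these, WNT5A and DKK1 still passed after the GC correction, and WNT3, WNT4, WNT5B and APC did not, while WNT5A lost its call in 5 of 6 fits that left out a library. In PC9 it came with more WNT4, WNT7A and TCF7L2, less DKK1 and much less APC. In bulk RNA a lower level can come from fewer cells expressing a gene or from less RNA per cell, which cannot be told apart.

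In A549, 32 members were tested and 5 (WNT6, WNT7A, WNT10A, LEF1 and LGR5) had too few counts. Of the 32, 1 was called upregulated (WNT5A) and 1 downregulated (APC), or 3.12% in each direction, against 1.7% and 5.51% of the 8771 genes tested. Both reached the minimum of counts in all libraries of one group only, the group in which they were higher, and the list was drawn up around APC. At any size of change, 11 members rose and 5 fell at an adjusted p under 0.05, 34.4% and 15.6% of those tested, against 18.9% and 20.7% of all genes, and 16 did not pass. As each library was left out, 6 of these 16 members passed in every fit (FZD7, LRP5, LRP6, DKK1, GSK3B and APC). The median log2 fold change was 0.22 over the members and 0.00 over all genes tested, and -0.03 and -0.06 after the GC correction.

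In PC9, 35 members were tested, and 2 were called upregulated (WNT4 and WNT7A) and 1 downregulated (APC), 5.71% and 2.86% against a background of 0.962% and 3.56% of 8419 genes. APC again reached the minimum through the NEO libraries alone. At any size of change, 8 rose and 4 fell, 22.9% and 11.4% against 13.3% and 14.2% of all genes, and 23 did not pass. Of the 12 that passed, 8 did so in every fit that left out a library (all but WNT5A, FZD6, FZD7 and DKK3). The median log2 fold change was 0.10 over the members and 0.00 over all genes.

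**Figure D2:**
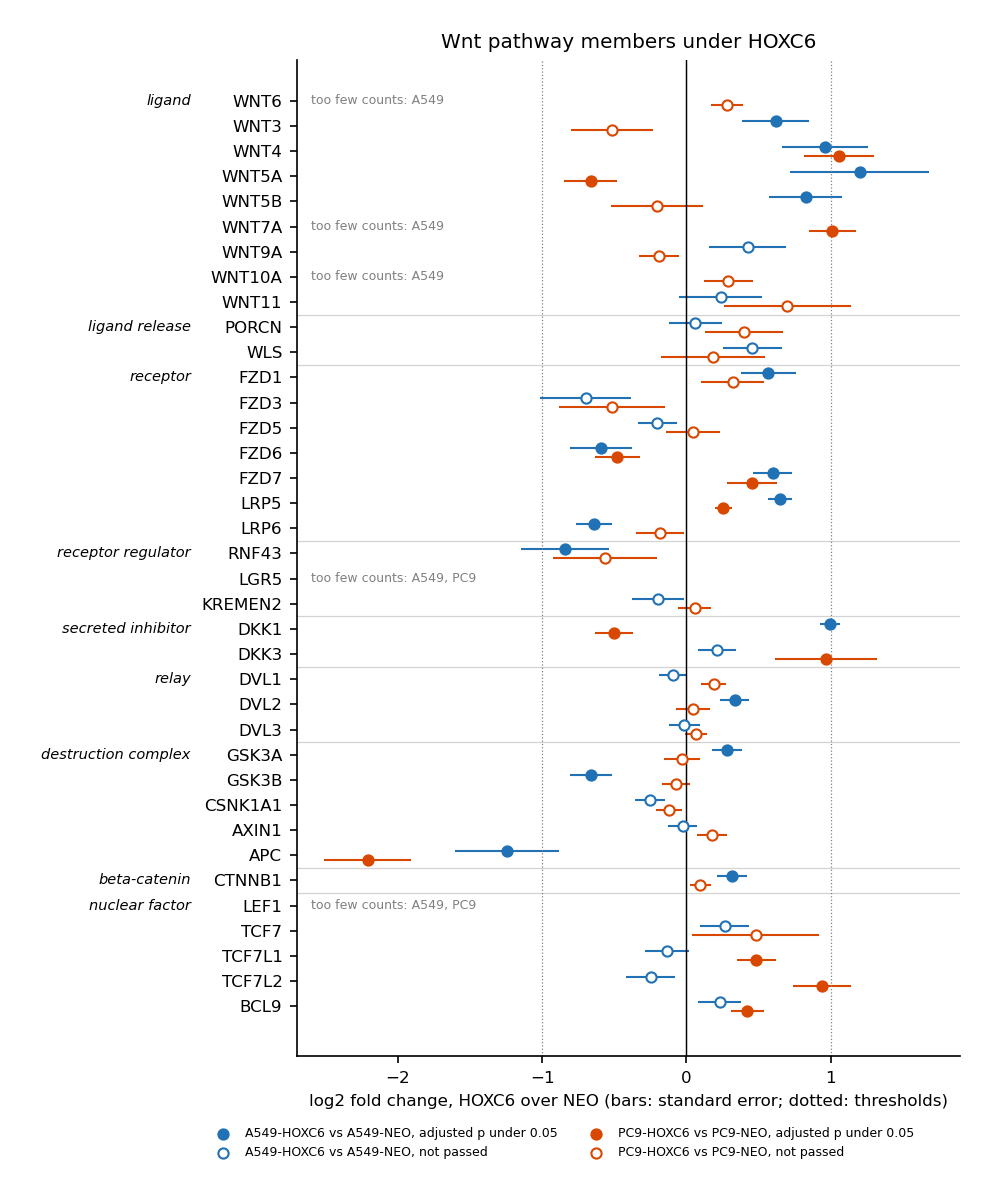
Log2 fold change of each member, HOXC6 over NEO, in A549 (blue) and PC9 (orange) with standard errors, grouped by role; filled circles passed an adjusted p of 0.05 and dotted lines mark the thresholds of 1 and -1. Without the GC correction, the ligands tested in A549 lie right of 0, from 0.24 to 1.201, APC lies furthest left in both lines, and DKK1 lies at 0.9989 in A549 and -0.50 in PC9.

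All 6 ligands tested in A549 had a positive log2 fold change, from 0.24 to 1.201, and 4 of them rose (WNT3, WNT4, WNT5A and WNT5B), where 18.9% of all genes did. None of these 4 passed in every fit that left out a library. All 6 but WNT5A lie at or above the median GC content, where 28.4% of all genes had a negative change in A549. After the GC correction WNT11 was at -0.10 and WNT9A at 0.17, and WNT5A alone still passed. The other 3 ligands did not reach the minimum of counts there. WNT5A went from 2.08, 4.42 and 1.18 CPM to 5.46, 5.99 and 6.96 in A549, so that every HOXC6 library lay above every NEO library. Its log2 fold change of 1.201 ± 0.48 rested on 3 to 15 counts per library and had an adjusted p of 0.0488. The adjusted p reached 0.202 without A549-NEO replicate 3 and the call was lost without any single library except A549-NEO replicate 2, without which the change was 1.799, and with DESeq2 the adjusted p was 0.173.

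In PC9, where WNT5A started higher, it fell, from 33.5, 36.2 and 35.2 CPM to 24.1, 25.1 and 18.9, and thus by 0.66 on the log2 scale (SE 0.18, adjusted p of 0.0069). The test of the difference between the HOXC6 effects in the 2 lines gave 1.901 ± 0.47 for WNT5A, with an adjusted p of 0.00317 by edgeR's quasi-likelihood interaction test over 12 libraries. WNT5A levels in A549-HOXC6 remained below those of every PC9 library. Because the transcript of WNT5A has a GC content of 41.6%, the correction raised its change in A549 to 1.52 and reduced its decrease in PC9 to -0.46, which then had an adjusted p of 0.0721.

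**Figure D3:**
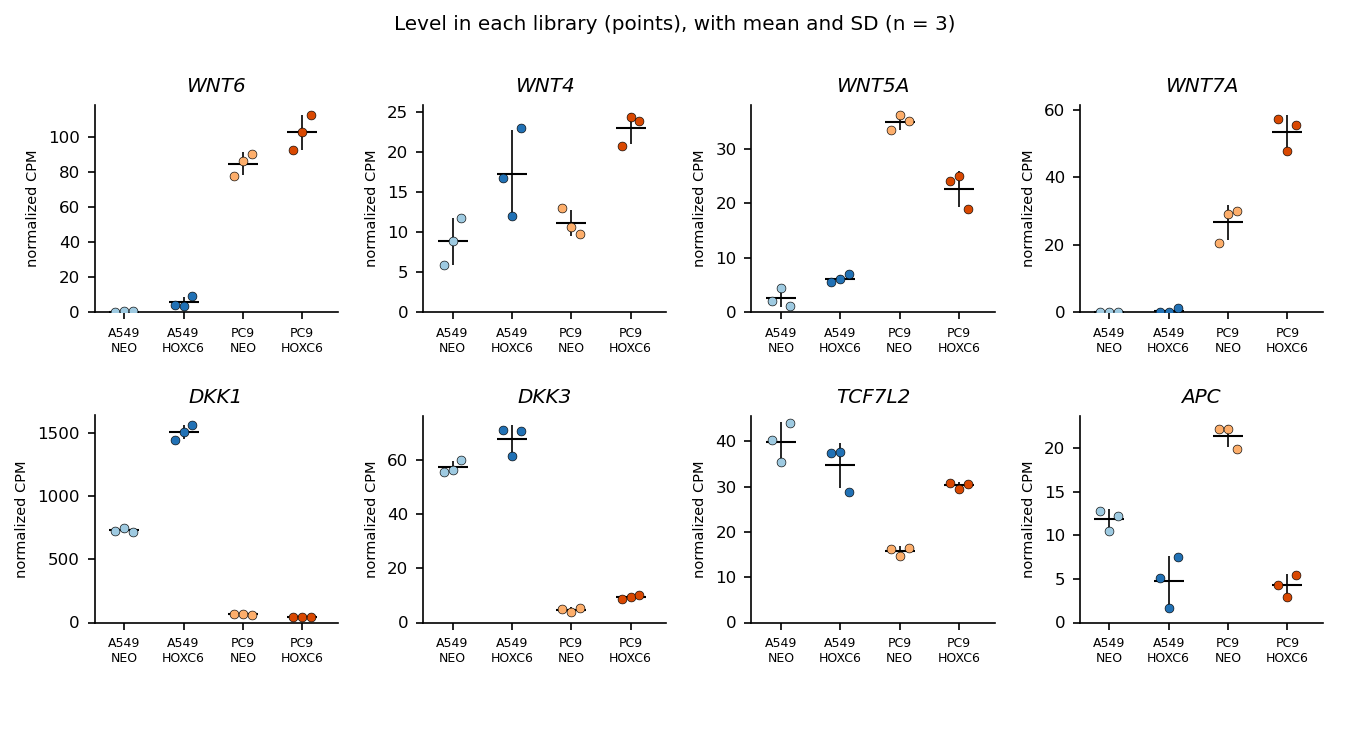
Normalized CPM of 8 members in each library (points), with the mean and SD over 3 libraries in each of the 4 groups; each panel has its own axis from 0. WNT6 and WNT7A are near 0 in A549, DKK1 is higher in A549-HOXC6 (732 to 1509 CPM on average), and APC is lower in the HOXC6 libraries of both lines.

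WNT4, a ligand with roles in kidney and female reproductive development, was the ligand that rose in both lines. In A549 its level went from 5.90, 8.84 and 11.8 CPM to 16.7, 11.98 and 23.01. In PC9 it went from 12.97, 10.6 and 9.76 CPM to 20.7, 24.3 and 23.8. The log2 fold change was 0.96 ± 0.30 in A549 (adjusted p of 0.0115) and 1.06 ± 0.24 in PC9 (adjusted p of 0.00136), and the difference between lines was -0.04 ± 0.40. With GC content and length corrected for, the changes were 0.70 (adjusted p of 0.0565) and 0.84 (adjusted p of 0.0125). In PC9 the change was 0.96 to 1.17 as each library was left out, and it was under the threshold without PC9-NEO replicate 3. In A549 it was 0.72 to 1.22, with an adjusted p of up to 0.0891 by edgeR's quasi-likelihood test, so it did not pass in every such fit.

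WNT7A was measurable in PC9 alone, where it went from 20.5, 29.2 and 30.1 CPM in PC9-NEO to 57.4, 47.9 and 55.5 in PC9-HOXC6. This was a 2.02-fold increase (log2 1.01 ± 0.16, adjusted p of 2.29e-05), with every HOXC6 library above every NEO library. It was 0.869 to 1.12 as each library was left out, below the threshold of 1 without PC9-NEO replicate 1, PC9-HOXC6 replicate 1 or PC9-HOXC6 replicate 3, and 0.83 after the correction (adjusted p of 0.000506). In A549 the gene had 0 counts in 5 libraries and 2 in A549-HOXC6 replicate 3.

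WNT6 had no more than 1 count in an A549-NEO library, whereas the A549-HOXC6 libraries held 11, 4 and 17. Against the floor this was an increase of at least 4.82-fold, from at most 0.402 CPM to 4.003, 3.42 and 9.097 CPM, and the bound ran from 3.25-fold without A549-HOXC6 replicate 3 to 5.74-fold without A549-HOXC6 replicate 2. The gene was removed by the minimum of counts in A549, and without that filter its adjusted p was 2.83e-05. In PC9 the level went from 77.3, 86.1 and 89.9 CPM to 92.1, 103 and 112, which gave a log2 fold change of 0.28 ± 0.11 with an adjusted p of 0.0534, and of 0.03 (adjusted p of 0.889) after the correction. The highest A549-HOXC6 library thus held 9.097 CPM of WNT6 against 77.3 in the lowest PC9 library. The transcript of WNT6 has a GC content of 70.4%, the highest of the members.

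WNT3 rose in A549 (11.4, 18.5 and 13.8 CPM to 21.8, 23.97 and 23.5, log2 0.62 ± 0.24, adjusted p of 0.0373), and in PC9 its log2 fold change was -0.51 ± 0.28 with an adjusted p of 0.186 (14.1, 14.1 and 11.9 CPM against 8.68, 10.3 and 9.15). The groups did not overlap in either line. The increase in A549 was 0.40 after the correction, with an adjusted p of 0.186. WNT5B rose in A549 by 0.83 ± 0.26 (adjusted p of 0.0114), and after the correction its change was 0.50 with an adjusted p of 0.125. WNT9A, WNT10A and WNT11 passed the test in neither line, with WNT10A at 40.04, 30.98 and 34.2 CPM in PC9-HOXC6 against 26.5, 29.7 and 30.1 in PC9-NEO.

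**Figure D4:**
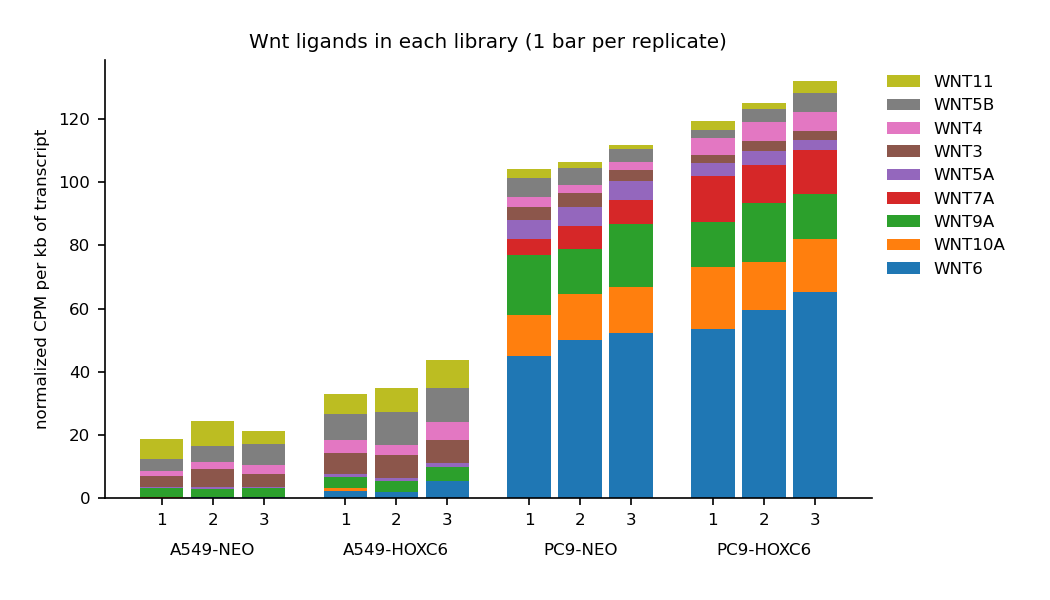
Summed level of the 9 ligands in each library, in normalized CPM per kb of transcript, with each ligand's part in its own colour and 1 bar per replicate. The bars are 21.5 high on average in A549-NEO and 107 in PC9-NEO, where WNT6 (dark blue) makes up 45.7%.

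Summed per kb of transcript, the 9 ligands went from 21.5 ± 2.84 to 37.1 ± 5.76 CPM per kb with HOXC6 in A549 (SD, n = 3). In PC9 the sum went from 107 ± 4.01 to 125 ± 6.41, and the sums of neither line were corrected for GC content. In A549-NEO, WNT3, WNT4, WNT5B and WNT11 made up 83.8 ± 2.12% of this sum, and in A549-HOXC6 77.7 ± 3.56%. WNT6 went from 0.677 ± 0.589% to 8.32 ± 3.37% of it. In PC9 the makeup was led by WNT6 in both groups, at 45.7 ± 2.17% and 47.4 ± 2.27%, with WNT9A and WNT10A next, while WNT5A went from 5.58 ± 0.23% to 3.12 ± 0.58%. WNT6, WNT7A, WNT9A and WNT10A together made up 19.5 ± 3.67% of the sum in A549-HOXC6 and 81.4 ± 2.67% in PC9-NEO. With the GC correction, none of WNT3, WNT4, WNT5B and WNT11, which led the sum in A549, passed the test there.

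The genes for ligand release did not pass the test in either line. Of the 7 receptors, FZD1, FZD7 and LRP5 rose and FZD6 and LRP6 fell in A549, and FZD7 and LRP5 rose and FZD6 fell in PC9. None passed the fold threshold. LRP5 went from 333, 318 and 350 CPM to 533, 513 and 573 in A549 (log2 0.65 ± 0.08, adjusted p of 4.68e-07). In PC9 it was at 625, 663 and 693 CPM and 804, 769 and 791 (log2 0.26 ± 0.06, adjusted p of 0.00177), and the effect was larger in A549 by 0.44 ± 0.10 (adjusted p of 0.002).

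LRP6 fell in A549 from 88.8, 98.8 and 102 CPM to 69.1, 59.9 and 60.5 (log2 -0.64 ± 0.13), so that HOXC6 came with more of one co-receptor and less of the other. LRP5 has a transcript GC content of 62.9% and LRP6 of 40.9%. After the correction the increase of LRP5 in A549 was 0.46 (adjusted p of 1.28e-07), that in PC9 was 0.04 (adjusted p of 0.635), and the change of LRP6 in A549 was -0.19 (adjusted p of 0.228). FZD7, a receptor linked to beta-catenin signalling in stem cells, rose by 0.60 ± 0.14 in A549 and 0.46 ± 0.17 in PC9, and by 0.37 (adjusted p of 0.0246) and 0.27 (adjusted p of 0.282) after the correction. Without PC9-HOXC6 replicate 3 the change of FZD7 in PC9 was 0.20 with an adjusted p of 0.492. FZD6, with a GC content of 37.7%, fell by 0.59 and 0.48 on the log2 scale, and its corrected changes were -0.13 and -0.10 with adjusted p of 0.682 and 0.712.

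RNF43, which removes Frizzled receptors from the cell surface, fell in A549 by 0.84 on the log2 scale (SE 0.31, adjusted p of 0.0297), from 13.2, 10.8 and 13.8 CPM to 7.64, 6.85 and 6.96. In PC9 it was at 8.11, 8.56 and 7.63 CPM against 5.79, 6.64 and 4.58 (log2 -0.57 ± 0.36, adjusted p of 0.260). After the correction the decrease in A549 was -1.07 (adjusted p of 0.00636). In the annotation used here, 4326 bp of the exons of RNF43 are shared with another gene on the same strand, so that its counts may depend on how reads in the overlap were assigned. The same holds for 4194 bp of CSNK1A1, and for shorter stretches of GSK3A (572 bp), APC (230 bp) and BCL9 (207 bp). Exons on the opposite strand overlap 5681 bp of DKK3 and at most 357 bp (KREMEN2) of any other member. Whether reads there were affected depends on the strand setting of the counting, which is not given. KREMEN2 did not pass the test in either line.

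DKK1 moved in opposite directions in the 2 lines. In A549 it went from 724, 753 and 719 CPM to 1451, 1512 and 1564, a log2 fold change of 0.9989 ± 0.07 that lay just under the threshold of 1 with an adjusted p of 1.03e-11. It was 1.04 after the correction and 1.01 with DESeq2, and thus past the threshold there. In PC9 it fell from 68.6, 71.0 and 60.2 CPM to 47.3, 47.2 and 46.4 (log2 -0.50 ± 0.13, adjusted p of 0.00483), and by 0.43 after the correction (adjusted p of 0.0193). The difference between lines was 1.54 ± 0.13 on the log2 scale with an adjusted p of 2.76e-11, and 1.49 to 1.62 as each library was left out.

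Per kb of transcript DKK1 reached 836 ± 31.3 CPM per kb in A549-HOXC6, against 104 ± 5.94 for LRP5, the next member in that order. DKK1 is also a known target of beta-catenin, and a part of beta-catenin in its changes here was not tested. The 3 CTTTG matches in its window printed above describe the letters only. DKK3 rose in PC9 from 4.86, 4.03 and 5.51 CPM to 8.68, 9.59 and 10.1 (log2 0.97 ± 0.36, adjusted p of 0.0416), on 8 to 33 counts per library. It no longer passed as any single library was left out (adjusted p of 0.0623 to 0.149), nor after the correction (adjusted p of 0.113). In A549 its log2 fold change was 0.21 ± 0.13 (adjusted p of 0.209).

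Before the GC correction, the relay and destruction complex held the largest decrease with HOXC6 of any member, that of APC. The list was drawn up around this gene, so its rank is a description only. After the correction RNF43 had the larger decrease in A549, at -1.07 against -0.71 for APC. APC is the scaffold that binds beta-catenin in the complex. In A549 it went from 12.8, 10.4 and 12.2 CPM to 5.09, 1.71 and 7.49, and in PC9 from 22.2, 22.1 and 19.9 CPM to 4.34, 2.95 and 5.49. Every HOXC6 library lay below every NEO library of its line. The HOXC6 libraries held few counts of APC, 14, 2 and 14 in A549 and 9, 4 and 18 in PC9. The decreases were 2.37-fold in A549 (log2 -1.24 ± 0.36, adjusted p of 0.00733) and 4.63-fold in PC9 (log2 -2.21 ± 0.30, adjusted p of 1.73e-06). The difference between the lines was 1.02 ± 0.50 with an adjusted p of 0.155, so a larger decrease in PC9 was not shown.

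APC has a transcript of 10704 bases with a GC content of 39.6%, in the range where most genes had lower values in HOXC6 libraries. After the correction its change was -0.71 in A549 (adjusted p of 0.142) and -1.82 in PC9 (adjusted p of 7.13e-05). Without A549-HOXC6 replicate 2, the smallest library, with 2 counts of APC, the change in A549 was -0.9973 and no longer called.

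GSK3B, a kinase of the complex, fell in A549 from 70.4, 70.7 and 58.5 CPM to 45.9, 42.8 and 40.7 (log2 -0.66 ± 0.15, adjusted p of 0.000641), and by -0.33 with an adjusted p of 0.0557 after the correction. In PC9 its change was -0.07 ± 0.10, and the difference between lines was -0.54 ± 0.17 (adjusted p of 0.0196). Its paralog GSK3A rose in A549 by 0.28 ± 0.10 (adjusted p of 0.0313), and this became -0.03 after the correction. DVL2 rose in A549 by 0.34 ± 0.10, which became 0.05 after the correction. AXIN1, CSNK1A1, DVL1 and DVL3 did not pass the test in either line, with log2 fold changes from -0.25 to 0.19.

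CTNNB1, which codes for beta-catenin, rose slightly in A549, from 158, 167 and 158 CPM to 223, 220 and 176 (log2 0.32 ± 0.11, adjusted p of 0.0181), and by 0.36 (adjusted p of 0.000918) after the correction. In PC9 its change was 0.10 ± 0.07. These are mRNA levels, and the pathway controls beta-catenin as a protein.

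Of 4 nuclear factors tested in each line, 3 rose in PC9 (TCF7L1, TCF7L2 and BCL9), where 13.3% of all genes did, and none passed the test in A549. After the correction TCF7L2 alone of these still passed in PC9. TCF7L2 went from 16.2, 14.6 and 16.5 CPM in PC9-NEO to 30.9, 29.5 and 30.5 in PC9-HOXC6 (log2 0.94 ± 0.20, adjusted p of 0.000676), with 0.89 to 0.98 as each library was left out and 0.92 after the correction (adjusted p of 0.00136). In A549 it was at 40.2, 35.4 and 44.004 CPM against 37.5, 37.7 and 28.9 (log2 -0.25 ± 0.17, adjusted p of 0.263). The difference between lines was -1.14 ± 0.26 with an adjusted p of 0.00121. TCF7L1, often a repressor without beta-catenin, rose in PC9 by 0.49 ± 0.13, with a difference between lines of -0.58 ± 0.21 (adjusted p of 0.0416), and its corrected change was 0.25 (adjusted p of 0.202). BCL9, which links beta-catenin to the transcription machinery, rose by 0.42 ± 0.11 in PC9, with a corrected change of 0.29 (adjusted p of 0.0663), and the difference between lines was -0.15 (adjusted p of 0.641).

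The difference between lines was tested as an interaction term over all 12 libraries, with 9229 genes and 35 members. The HOXC6 effect was called higher in A549 for 4 members (WNT6, WNT3, WNT5A and DKK1) and lower for 1 (TCF7L2), 11.4% and 2.86% of the members tested against 2.76% and 2.38% of all genes. WNT6 was known to rise in A549 when the list was drawn up and reached the minimum of counts in every library of the PC9 groups alone, and without it 3 of 34 members (8.82%) were called higher. Of these 3, WNT5A did not reach that minimum in every library of A549-NEO, the group in which it was lowest. Nothing is therefore read from these shares. At any size of difference, 5 were higher and 3 lower (14.3% and 8.57%, against 10.9% and 8.44% of all genes), with LRP5, GSK3B and TCF7L1 added, and 5 of these 8 passed in every fit that left out a library (all but WNT3, GSK3B and TCF7L1). The median over the members was -0.04. For WNT6 the fitted difference of 3.90 ± 0.70 (adjusted p of 6.65e-05) depends on how counts near 0 in A549-NEO are treated and is no estimate of size. For WNT3 it was 1.18 ± 0.36 (adjusted p of 0.0184), which did not pass with DESeq2 (adjusted p of 0.0603), in libraries thinned to equal depth (adjusted p of 0.422) or without A549-NEO replicate 1 (adjusted p of 0.0583). WNT5A did not pass when thinned either (adjusted p of 0.121). With WNT7A and WNT10A near 0 in A549, their differences could not be read.

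Across genes, log2 fold change and transcript GC content went together in both lines. Over all genes with a GC content Spearman's correlation was 0.53 in A549 and 0.53 in PC9, and over the members it was 0.27 (n = 32) and 0.42 (n = 35). These correlations are across genes that share the same libraries and are given as a description. Among members below the median GC content of all genes tested (48.7%), 7 of 12 in A549 and 8 of 12 in PC9 had a negative log2 fold change, against 71.8% and 70.3% of all such genes. Among the other members, 7 of 20 and 5 of 23 were negative, against 28.4% and 30.5% of all genes.

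**Figure D5:**
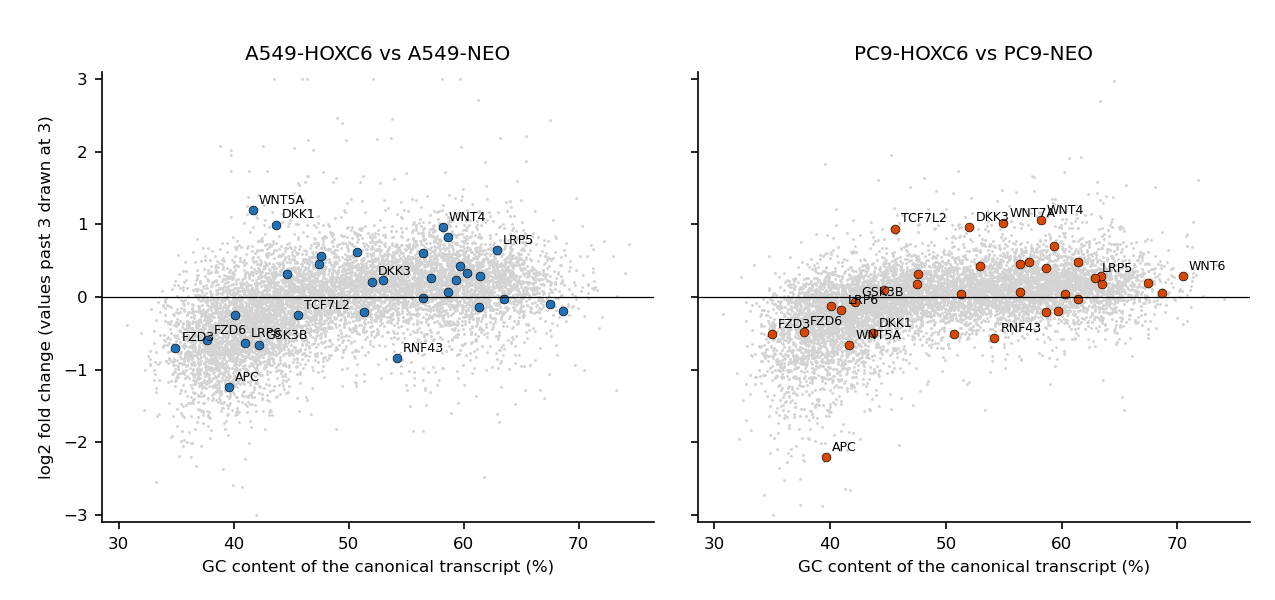
Log2 fold change against transcript GC content for all genes tested (grey) and for the members (coloured) in A549 and PC9, with 14 members labelled. The grey points slope upward (Spearman's correlation of 0.53 in each line), and APC lies at a GC content of 39.6%. WNT5A and DKK1 lie above 0 in A549 and below 0 in PC9.

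After the correction, which brought the correlation over all genes to 0.02 in A549 and 0.00 in PC9, 6 members rose in A549 (WNT5A, FZD1, FZD7, LRP5, DKK1 and CTNNB1) and 4 fell (DVL1, AXIN1, TCF7L1 and RNF43), 18.8% and 12.5% of those tested against 12.8% and 19.1% of all genes. Of these 10 members, 7 had passed in the same direction before. In PC9, 3 rose (WNT4, WNT7A and TCF7L2) and 3 fell (WNT9A, DKK1 and APC), 8.57% each against 8.37% and 12.1% of all genes, and 5 of these had passed in the same direction before. All 8 members past the interaction test remained so after the correction, with CTNNB1 added, which made 17.1% higher and 8.57% lower against 11.9% and 9.68% of all genes. The part of GC content in the differences between the vectors was not tested beyond this correction.

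The pathway holds many other genes, and 103 others were listed by role, of which 73 were measured. In A549, 55 had enough counts, and 12 of them rose and 6 fell at any size (21.8% and 10.9%, against 18.9% and 20.7% of all genes). None was called upregulated, and 2 were called downregulated, RSPO3 and CSNK1G3. RSPO3, a secreted protein that strengthens Wnt signals by holding back RNF43, went from 113, 125 and 111 CPM to 50.2, 53.9 and 51.9 (log2 -1.21 ± 0.12, adjusted p of 1.29e-08). It had 0 counts in all 6 PC9 libraries. CSNK1G3, a casein kinase, fell by 1.17 on the log2 scale (SE 0.15). The corrected changes were -0.84 for RSPO3 and -0.68 for CSNK1G3.

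In PC9, 49 of the other genes had enough counts, and 12 rose and 3 fell (24.5% and 6.12%, against 13.3% and 14.2% of all genes). SFRP1, a secreted protein that binds Wnt ligands and holds them from their receptors, was called upregulated, from 53.0, 63.9 and 68.3 CPM to 123, 158 and 123 (log2 1.10 ± 0.12, adjusted p of 3.74e-08). In A549 it rose by 0.63 ± 0.10, from 132, 129 and 123 CPM to 221, 201 and 190, and the difference between lines was -0.42 with an adjusted p of 0.0563. With the correction the changes were 0.95 in PC9 and 0.48 in A549. In the interaction test 4 of 57 were higher in A549 and 7 lower (7.02% and 12.3%, against 10.9% and 8.44% of all genes), and NFATC1, a calcium-dependent transcription factor, was called (log2 -1.06 ± 0.33, adjusted p of 0.0202). The median log2 fold change over these genes was 0.11 in A549 and 0.10 in PC9, against 0.00 over all genes in each.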

How the data were processed

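RNA-seq counts of 12 libraries, 3 in each of 4 groups taken from the labels, were used. The authors isolated polyadenylated mRNA with oligo(dT) beads, prepared directional NEBNext libraries, sequenced paired reads of 150 bp on an Illumina HiSeq X instrument, aligned them to GRCh37.p13 with HISAT2 and counted them with HTSeq. The submitters' processing notes give HISAT2 2.1.0 and HTSeq 0.9.1, and the strand setting and annotation release are not given in the sources used here. The deposited values are the authors' raw read counts per gene, with no normalization and no pooling of replicates. The table holds 12584 complete genes and 1 incomplete last entry, which was left out, so scaling and adjustment cover these genes only.

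Each comparison was fitted with edgeR 4.0.16 in R 4.3.3 (filterByExpr, TMM, quasi-likelihood test, Benjamini-Hochberg over all genes tested), on the 6 libraries of the comparison or on 12 for the difference between lines. Standard errors were the absolute log2 fold change divided by the square root of F. Levels are TMM-normalized CPM on one scale over 12 libraries, and per kb of the canonical transcript between genes. Names, positions, GC content and lengths came from GENCODE 44 mapped to GRCh37. The GC correction used smooth trends per library (mgcv 1.9.3). Alternatives were DESeq2 1.42.0, RLE and library size scaling, no filter, at least 10 counts in every library, a replicate block, the GC correction with and without the block, thinning to equal depth, 12 libraries in one fit, no fold criterion and each library left out. The scripts were tested on simulated data. The SDs and standard errors cover the spread between the libraries of a group, and the floors cover counting only.

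Replicates of a group differed by more than sampling noise (chi-square per degree of freedom 1.59 to 4.41). The members and gene lists were chosen with earlier results of these data known. Named with values in every library were members called in any comparison, WNT6 and APC, and members past an adjusted p of 0.05 where their level bears on the result, the last chosen after their values were seen. Of the wider lists, genes called with HOXC6 were named, at most 10 per comparison by adjusted p.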

Additional observations from a re-analysis of the deposited data

Results flagged for a closer look

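The log2 fold change with HOXC6 differed between A549 and PC9 for 8 members by edgeR's quasi-likelihood interaction test (adjusted p under 0.05), each given here as the change in A549 minus that in PC9. It was larger in A549 for WNT6 (3.90, a fitted value that rests on A549-NEO libraries of 0 or 1 count), WNT5A (1.901), DKK1 (1.545), WNT3 (1.18) and LRP5 (0.44). It was smaller in A549 for TCF7L2 (-1.14), TCF7L1 (-0.58) and GSK3B (-0.54). The differences of WNT3, GSK3B and TCF7L1 did not pass in every fit that left out a library. Those of WNT3 and WNT5A did not pass in libraries thinned to equal depth, nor that of WNT3 with DESeq2. For WNT5A and DKK1 the changes within the lines passed the test in opposite directions. By edgeR's quasi-likelihood test the increase of WNT5A in A549 had an adjusted p of 0.0488. It lost its call in 5 of 6 fits that left out a library. The decrease of WNT5A in PC9 had an adjusted p of 0.0721 after the GC correction, and of up to 0.0861 as each library was left out.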

How the results depend on the processing

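In A549, 1 member was called higher and 1 lower. The number called higher was 2 with DESeq2, 2 with RLE size factors, 2 with the GC correction, 2 with that correction and the replicate block, 4 with all 12 libraries in one fit and 11 without a fold criterion. It was 0 with scaling by library size and 0 with at least 10 counts in every library, which fewer members reach, and 0 to 2 as each library was left out (0 without A549-NEO replicate 1 or A549-HOXC6 replicate 3, and 2 without A549-NEO replicate 2 or 3 or A549-HOXC6 replicate 1). The number called lower was 0 with at least 10 counts, 5 without a fold criterion and 0 to 1 as each library was left out (0 without A549-HOXC6 replicate 2). With the GC correction APC was no longer called (-0.71) and RNF43 was (-1.07). The members counted as higher also changed. With DESeq2, WNT5A was no longer called (adjusted p of 0.173) and DKK1 was (1.01). Without the low-count filter, WNT5A was no longer called and WNT6 was (adjusted p of 0.0702 and 2.83e-05 by edgeR's quasi-likelihood test). In PC9, with 2 called higher and 1 lower, the number called higher was 0 with library size, 0 with the GC correction, 0 with that correction and the replicate block, 8 without a fold criterion and 1 to 2 with a library left out (1 without PC9-NEO replicate 1 or 3 or PC9-HOXC6 replicate 1 or 3). The number called lower was 0 with at least 10 counts and 4 without a fold criterion. Of the members 7 were called lower in A549-NEO than in PC9-NEO, 3 with at least 10 counts and 13 without a fold criterion. In the difference between lines, 4 members were called higher and 1 lower, against 2 higher when thinned and 3 lower without a fold criterion. GSK3A in A549 reversed to -0.0305 with the GC correction and -0.0291 with the block added. The causes were not tested. Of 2334 recomputed values of single members, 95 changed sign, 2 of them for members past an adjusted p of 0.05.

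Same-numbered libraries did not deviate together (mean correlation 0.00295 in A549, 0.00523 in PC9 and -0.0229 between the NEO groups), and the main fits did not pair them. Such correlations, taken over all genes around means of 3 libraries, cannot show whether same-numbered libraries shared a culture or batch. With the replicate number as a block, 1 member was called higher and 1 lower in A549 and 2 and 1 in PC9, as without it, and WNT5B joined the members called in the difference between lines (1.14, adjusted p of 0.0417, 5 higher in all). Low counts limit WNT5A and WNT6 in A549, DKK3 in PC9 and APC in both lines, and genes outside the 12584 were not analysed here.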

Other observations

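A list of 18 genes commonly used as targets of beta-catenin, chosen with earlier results of these data known, gave both directions. The genes named here were picked after their values were seen. In A549, DKK1, MYC (log2 0.45 ± 0.10) and SOX9 (0.93 ± 0.17) rose and RNF43 and CD44 (-0.35 ± 0.07) fell among 11 tested. In PC9, CD44 (0.31 ± 0.07) and SOX9 (0.55 ± 0.10) rose and DKK1 and CCND1 (-0.54 ± 0.06) fell among 8 tested. Of all genes, 18.9% rose and 20.7% fell in A549 and 13.3% and 14.2% in PC9. AXIN2, a feedback gene of the pathway, was counted 13, 24 and 31 times with the empty vector in A549. The A549-HOXC6 libraries held 30, 27 and 18, and the fitted change was 0.59 ± 0.36 on the log2 scale (edgeR's quasi-likelihood test, adjusted p of 0.198). The PC9-NEO libraries held 4, 5 and 8 counts and those of PC9-HOXC6 0, 1 and 5, too few to be tested within PC9, and the difference between the lines was 2.21 ± 0.85 (adjusted p of 0.0622). The HOXC6 effect was larger in A549 for CCND1 (0.76 ± 0.11) and MYC (0.60 ± 0.14) and smaller for CD44 (-0.61 ± 0.10), each with an adjusted p under 0.05.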
